A study of Mus musculus with 24 samples.

Results

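The genes MCM2, MCM3, MCM4, MCM5, MCM6, MCM7 and MCM10 were followed across 8 treatment groups of human myeloma tumours grown in mice. They were chosen by name, as the MCM helicase subunits and MCM10, with earlier results of these data known. Each of the 7 was represented by 1 probe set. In all, 14884 genes had a probe set to which the array's probe table gave 1 gene symbol. The tumours were plasmacytomas of MM.1S, an established human multiple myeloma line, injected under the skin of CB17-SCID mice in Matrigel. These hosts lack functional T and B cells but keep macrophages and other innate cells. The groups were vehicle control (PBS), filanesib at 10 mg/kg, dexamethasone at 0.5 mg/kg, pomalidomide at 8 mg/kg, the pairs filanesib plus dexamethasone, filanesib plus pomalidomide and pomalidomide plus dexamethasone, and the triple combination of all 3 drugs. Drugs were given by intraperitoneal injection for 2 days, and every group had 3 arrays, 24 in all. All tumours, controls included, came from the same cell line and host strain, so the values describe 1 myeloma line. Nothing in the labels ties each array to its own mouse, and the p-values therefore cover the spread between arrays, part of which may be technical.

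MCM2 to MCM7 form the ring-shaped core of the replicative helicase, the motor that unwinds DNA ahead of the replication fork. The ring is loaded onto replication origins in G1 by the origin recognition complex with CDC6 and CDT1, and becomes active in S phase when CDC45 and the GINS complex join it. MCM10 is not part of the ring: it binds the assembled helicase and is needed for its activation and for fork progress. Transcription of the MCM genes is driven by E2F factors as cells leave G1, and MCM proteins are widely used as markers of proliferating cells. Filanesib inhibits the mitotic kinesin KIF11, pomalidomide directs the lymphoid factors IKZF1 and IKZF3 to degradation through cereblon, and dexamethasone activates the glucocorticoid receptor.

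Levels are log2 values normalised by the authors, so a difference of 1 is a doubling. Over all probe sets, arrays correlated at 0.951 to 0.990. Arrays of pomalidomide alone had the largest spread around their group, with residual SDs of 0.232, 0.194 and 0.289 over genes, against 0.127 to 0.180 in the other 21 arrays. All 8 measured plasma cell markers lay above the median level of all genes, 4.78, as did 2 of 3 T cell, 1 of 5 macrophage, 0 of 4 endothelial and 0 of 2 fibroblast markers. The T cell markers had means of 3.72, 4.92 and 4.98, close to that median, and the plasma cell markers a median of 9.89. Because bulk tumour RNA was measured, fewer cycling cells and less MCM RNA per cell cannot be told apart.

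The MCM genes were lowest in tumours given pomalidomide alone and highest in those given filanesib plus dexamethasone or vehicle. Pomalidomide alone had the lowest mean for MCM2 to MCM7, and pomalidomide plus dexamethasone for MCM10. Filanesib plus dexamethasone had the highest mean for 6 of the 7 genes, and control for MCM2. The distance between the highest and the lowest group mean ran from 0.67 for MCM5 (1.59-fold) to 0.97 for MCM4 (1.96-fold). When the 8 groups were ordered by their means, most neighbouring groups overlapped. Of the 7 neighbouring pairs, none was separate for MCM3, MCM5 and MCM6, 1 was for MCM4, MCM7 and MCM10, and 2 were for MCM2. The separate pairs for MCM2 were dexamethasone over pomalidomide plus dexamethasone, and filanesib plus pomalidomide over pomalidomide alone. Between the same groups, 4.35% and 8.28% of all genes were separate in the same direction. The counts of separate neighbours were made for these 7 genes only, without a share over all genes, and are given as a description.

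**Figure D1:**
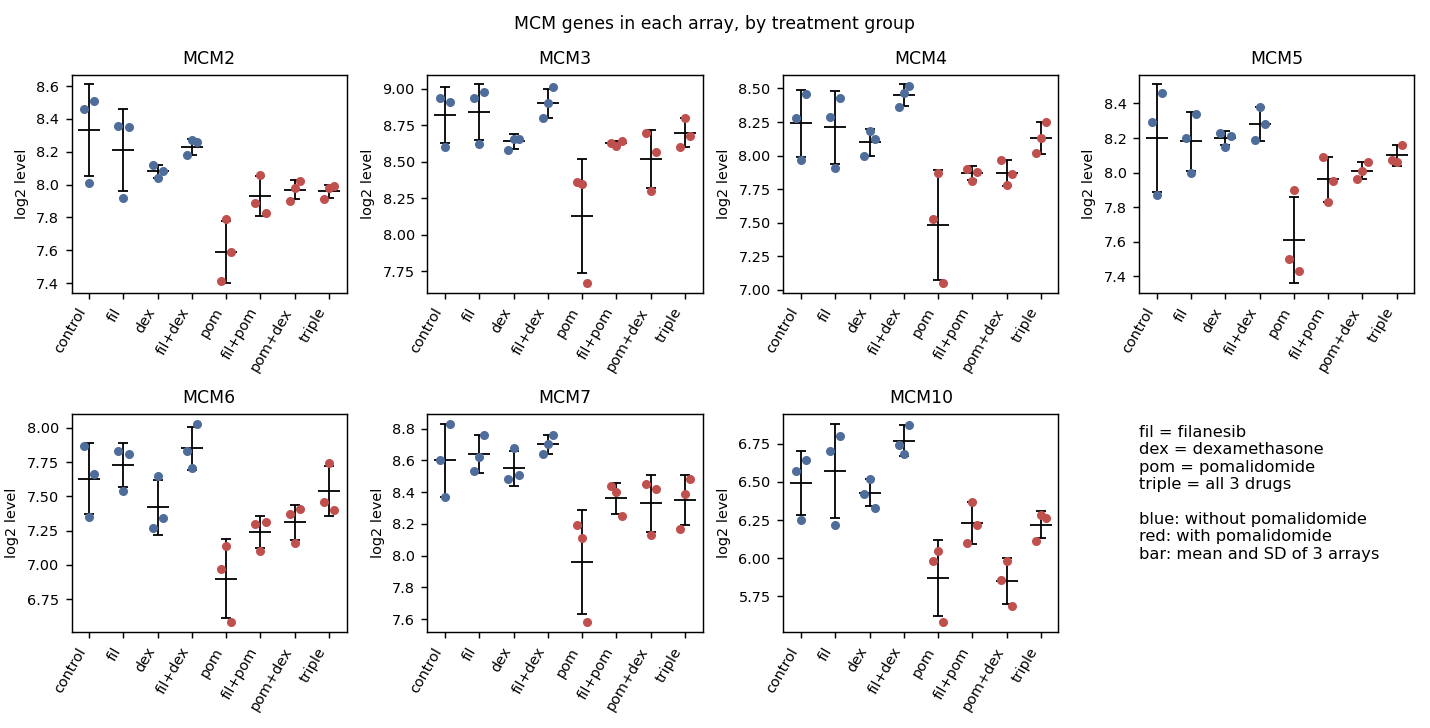
Log2 level of each MCM gene (vertical axis, own scale per gene) in the 24 arrays by treatment group (horizontal axis); points are single arrays, and the bar gives the mean and SD of 3 arrays. The pomalidomide alone arrays are the lowest group for MCM2 to MCM7, and for MCM10 pomalidomide plus dexamethasone is as low.

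With pomalidomide, all 7 MCM genes fell in the average over backgrounds, the mean of the 4 differences with and without the drug, which sets 12 arrays against 12. Across all genes, 394 of 14884 (2.65%) fell in this comparison and 329 rose, at a Benjamini-Hochberg adjusted p under 0.05 in limma. The sizes ran from a fall of 0.30 ± 0.07 (SE) for MCM5 to 0.52 ± 0.07 for MCM10, or 1.23-fold to 1.44-fold. The median fall of the 7 genes was 0.37, beside a median of -0.01 over all genes. All 7 were also lower with pomalidomide in each of the 4 backgrounds, as were 12.1% of all genes.

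In the ring, MCM2 carries a histone-binding tail and sits at the gate through which DNA enters. In the 12 arrays with pomalidomide MCM2 ranged from 7.41 to 8.06 with a median of 7.91, and in the 12 without from 7.92 to 8.51 with a median of 8.22. The groups of arrays overlapped, with 7 of the pomalidomide arrays below every array without the drug. The average change of MCM2 was -0.35 ± 0.07 (limma adjusted p = 0.00211). MCM5, the partner of MCM2 at the gate, ranged from 7.43 to 8.16 with the drug and from 7.87 to 8.46 without it. Only 3 pomalidomide arrays lay below all others for MCM5, and its average change was -0.30 ± 0.07 (limma adjusted p = 0.0117).

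MCM4, MCM6 and MCM7 make up the subcomplex that unwinds DNA on its own in vitro. MCM4 ranged from 7.05 to 8.25 with pomalidomide and from 7.91 to 8.52 without. MCM6 ranged from 6.58 to 7.74 with the drug and from 7.27 to 8.03 without, and MCM7 from 7.58 to 8.48 against 8.37 to 8.83. For MCM7, 11 of the 12 arrays without pomalidomide lay above every array with it. The average changes were -0.41 ± 0.08 for MCM4, -0.41 ± 0.08 for MCM6 and -0.37 ± 0.07 for MCM7 (limma adjusted p = 0.00268, 0.00208 and 0.00267). MCM3, which takes part in loading the ring through its contact with CDC6, ranged from 7.67 to 8.80 with pomalidomide and from 8.58 to 9.01 without. Its average change was -0.31 ± 0.08 (limma adjusted p = 0.0186).

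MCM10 was read at 6.57, 6.25 and 6.64 in the control arrays and at 5.98, 6.05 and 5.58 in those of pomalidomide alone. It stood at 6.42, 6.52 and 6.33 with dexamethasone and at 5.86, 5.98 and 5.69 with pomalidomide plus dexamethasone. In both pairs every pomalidomide array was below every array without it, as for 9.06% and 4.35% of all genes. With filanesib plus dexamethasone MCM10 was at 6.74, 6.68 and 6.87, and with the triple combination at 6.11, 6.28 and 6.26, again without overlap. Here 7.36% of all genes were lower without overlap. Filanesib alone gave 6.70, 6.22 and 6.80, and filanesib plus pomalidomide 6.10, 6.37 and 6.22. Those last groups overlapped, since replicate 2 of filanesib alone was as low as the arrays of the pair. The average change of MCM10 with pomalidomide was -0.52 ± 0.07 (limma adjusted p = 0.000109), a 1.44-fold fall.

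**Figure D2:**
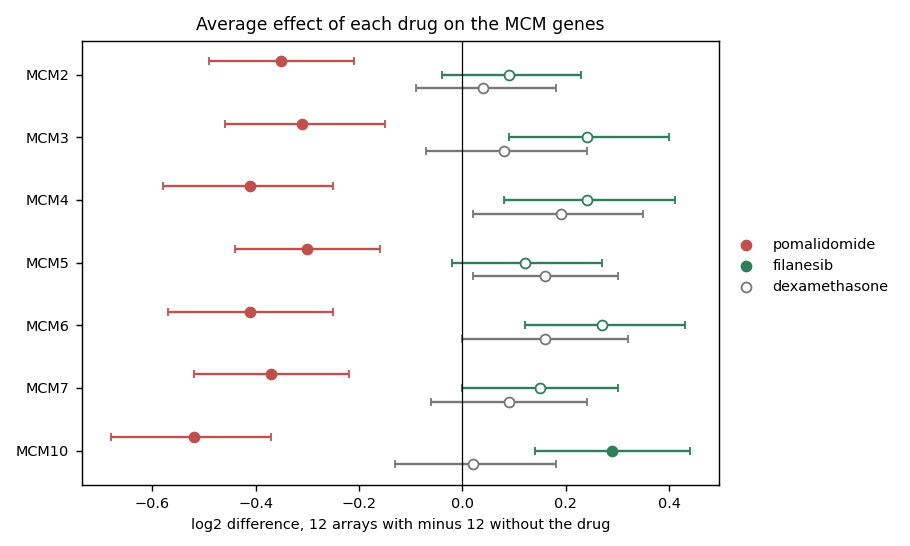
Average effect of each drug on the 7 MCM genes, as the log2 difference between 12 arrays with and 12 without the drug (horizontal axis); bars are 95% confidence intervals, filled points passed an adjusted p of 0.05 in limma and open points did not. The 7 pomalidomide points lie between -0.52 and -0.30, while for filanesib MCM10 alone is filled.

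With pomalidomide given alone, all 7 MCM genes fell against control by 0.59 to 0.76, in a comparison where 219 genes (1.47%) fell and 75 rose. MCM2 was at 8.46, 8.01 and 8.51 in control tumours and at 7.41, 7.79 and 7.59 with pomalidomide, a change of -0.73 ± 0.13 (limma adjusted p = 0.00727). MCM4 was at 8.28, 7.97 and 8.46 against 7.53, 7.87 and 7.05, a change of -0.76 ± 0.16 (limma adjusted p = 0.0195). Neither gene's groups overlapped, but control replicate 2 was the lowest control array for both genes, and the pomalidomide array nearest to it was replicate 2. MCM6 moved from 7.87, 7.35 and 7.66 to 6.97, 7.14 and 6.58, a change of -0.73 ± 0.15 (limma adjusted p = 0.0195). MCM5 was at 8.29, 7.87 and 8.46 against 7.50, 7.90 and 7.43, and here the highest pomalidomide array lay above the lowest control. Its change was -0.59 ± 0.14 (limma adjusted p = 0.0278). MCM3 was at 8.94, 8.60 and 8.91 in control and 8.36, 8.35 and 7.67 with pomalidomide, and MCM7 at 8.60, 8.37 and 8.83 against 8.19, 8.11 and 7.58. For both, replicate 3 of pomalidomide alone lay far below its companions. MCM3, MCM7 and MCM10 changed by -0.69 ± 0.15, -0.64 ± 0.14 and -0.62 ± 0.15 (limma adjusted p = 0.0227, 0.0254 and 0.0316). Groups did not overlap for 6 of the 7 genes, against 9.06% of all genes that were lower without overlap. The count of 7 was 0 without control replicate 1 or without control replicate 3, 1 without pomalidomide replicate 3 and 6 without pomalidomide replicate 1. These SEs and p-values use a spread shared by all 8 groups. For MCM4 the SD was 0.41 with pomalidomide alone and 0.25 in control, and 0.05 to 0.27 in the other groups. A fit of only the compared groups called 0 members and 3 genes in all, and array weights called 1 member and 62 genes.

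Beside another drug the pomalidomide differences of MCM2 to MCM7 were smaller. Beside filanesib they ran from -0.22 to -0.49, beside dexamethasone from -0.11 to -0.23 and beside filanesib plus dexamethasone from -0.19 to -0.35. The corresponding values of MCM10 were -0.34 ± 0.15, -0.58 ± 0.15 and -0.55 ± 0.15. No MCM gene passed limma's adjusted threshold in any of these 3 backgrounds, where 37, 4 and 4 of all genes did (0.249%, 0.0269% and 0.0269%). At an unadjusted p under 0.05 in limma the MCM genes numbered 4, 1 and 4, beside 1593, 825 and 942 of all 14884 genes. Groups were lower without overlap for 3, 5 and 5 MCM genes, beside 9.83%, 4.35% and 7.36% of all genes.

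How far the average rested on the pomalidomide-only tumours was measured by leaving that background out. Over the 3 backgrounds with another drug, MCM10 alone kept its call, at -0.49 ± 0.08 (limma adjusted p = 0.0019). Calls were also fewer over the whole array, where 129 of 14884 genes then fell and 224 rose. MCM2 to MCM7 then stood at -0.18 to -0.30, with adjusted p from 0.0717 to 0.378 in the same limma model. Without replicates 1 and 3 of pomalidomide alone, the arrays with the largest residual spread, the median of the 7 genes was -0.32 and MCM5 stood at -0.22. The difference between MCM10 and the other members was not tested.

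Filanesib's average effect was above 0 for all 7 MCM genes, and 1 of them, MCM10, passed the test. Across all genes, 186 (1.25%) rose and 22 fell. MCM10 ranged from 6.10 to 6.87 in the 12 arrays with filanesib and from 5.58 to 6.64 in the 12 without, with medians of 6.32 and 6.15. The arrays overlapped widely, and the average change was 0.29 ± 0.07 (limma adjusted p = 0.0479). This call was near the threshold: it was lost in 18 of the 24 omissions of 1 array, where adjusted p ran from 0.0071 to 0.11. The other genes stood at 0.27 ± 0.08 for MCM6, 0.24 ± 0.08 for MCM3, 0.24 ± 0.08 for MCM4, 0.15 ± 0.07 for MCM7, 0.12 ± 0.07 for MCM5 and 0.09 ± 0.07 for MCM2. Their limma adjusted p-values ran from 0.085 to 0.628. MCM4 and MCM6 passed when pomalidomide replicate 2 was left out.

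By background, filanesib alone left the MCM genes between -0.11 and 0.10 from control, with overlapping groups for all 7. In that comparison limma called 0 genes of the array (0%), and 0 members had an unadjusted p under 0.05, beside 587 of all genes. Beside dexamethasone the filanesib differences were 0.09 to 0.43, and beside pomalidomide 0.33 to 0.50. Groups were higher without overlap for 5 genes beside dexamethasone (7.06% of all genes) and for 4 beside pomalidomide (8.28%). MCM3 showed the largest of these differences: filanesib plus pomalidomide arrays stood at 8.63, 8.61 and 8.64, and those of pomalidomide alone at 8.36, 8.35 and 7.67. That difference was 0.50 ± 0.15 and did not pass (limma adjusted p = 0.138). No member passed limma's adjusted threshold beside dexamethasone or beside pomalidomide, where 3 (0.0202%) and 53 (0.356%) genes of the array did. In limma, 3 and 7 members had an unadjusted p under 0.05, beside 853 and 1980 of all genes.

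The triple combination was set against pomalidomide plus dexamethasone, the comparison that asks what filanesib added to that pair. MCM10 was 0.37 ± 0.15 higher with all 3 drugs and its groups did not overlap (limma adjusted p = 0.52). MCM4 was 0.26 ± 0.16 higher, also without overlap, at 8.02, 8.13 and 8.25 against 7.97, 7.78 and 7.86. Among all genes 7.22% were higher without overlap here. The remaining 5 genes differed by -0.01 to 0.22 and overlapped. None of the 7 passed limma's adjusted threshold, which 1 gene of the whole array did (0.00672%). MCM10 alone of the 7 had an unadjusted p under 0.05 in limma, beside 1085 of all genes. Against control, the triple combination left the MCM genes 0.09 to 0.37 lower. No MCM gene passed limma's threshold in that comparison, where 38 genes (0.255%) did. There MCM2 alone of the 7 had an unadjusted p under 0.05 in limma, beside 1579 of all genes.

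Dexamethasone had no MCM gene past the threshold in its average effect, where 2 genes (0.0134%) passed in all. MCM4 and MCM5 had unadjusted p under 0.05 in limma, among 1143 genes of the array that did. The averages ran from 0.02 ± 0.07 for MCM10 to 0.19 ± 0.08 for MCM4. Given alone it left all 7 genes slightly below control, by 0.01 to 0.25, with overlapping groups. None of these passed in limma or had an unadjusted p under 0.05. Of the whole array, 1 gene passed (0.00672%) and 581 had an unadjusted p under 0.05. Beside pomalidomide, MCM2 to MCM7 were 0.37 to 0.41 higher with dexamethasone, whereas MCM10 differed by -0.02 ± 0.15. MCM5, for example, was at 7.96, 8.01 and 8.06 with the pair and at 7.50, 7.90 and 7.43 with pomalidomide alone, without overlap. Groups were likewise separate for MCM2 and MCM6, against 6.5% of all genes. None of the 7 differences passed limma's adjusted threshold, which 1 gene of the array did (0.00672%). Of the 7, 6 had an unadjusted p under 0.05 in limma, beside 1423 of all genes. Beside filanesib the dexamethasone differences were 0.02 to 0.24, and beside filanesib plus pomalidomide -0.02 to 0.30, with MCM4 and MCM6 higher without overlap in the latter (5.62% of all genes). No member passed limma's adjusted threshold in either, where 1 gene (0.00672%) and 0 genes (0%) of the array passed. None had an unadjusted p under 0.05 in limma, beside 802 and 701 of all genes.

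**Figure D3:**
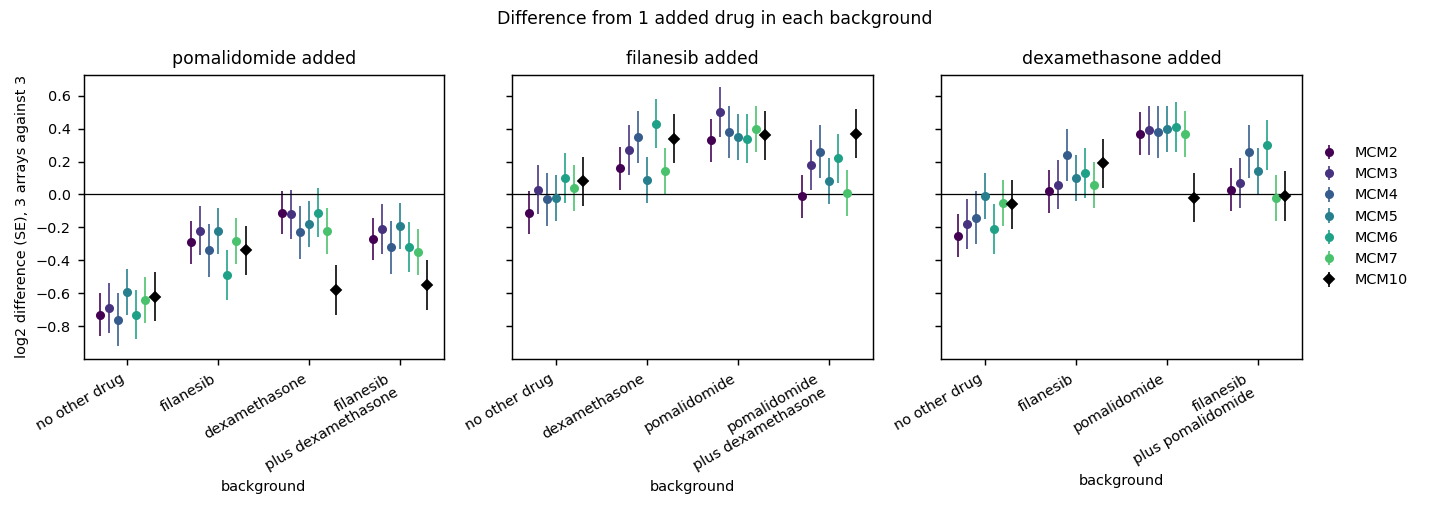
Log2 difference of each MCM gene (vertical axis, with SE) when 1 drug was added to each background (horizontal axis), 3 arrays against 3; the panels show pomalidomide, filanesib and dexamethasone, and the black diamond is MCM10. Pomalidomide points lie lowest with no other drug, and beside dexamethasone MCM10 at -0.58 lies below MCM2 to MCM7 at -0.11 to -0.23.

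Tests of whether 1 drug's effect differed with another found no MCM gene past limma's adjusted threshold, and no gene of the array passed in any of the 3 interactions (0%). For pomalidomide by dexamethasone the values were 0.39 ± 0.15 for MCM6, 0.32 ± 0.13 for MCM2 and -0.08 ± 0.15 for MCM10. MCM6 and MCM2 were the 2 members with an unadjusted p under 0.05, at 0.0177 and 0.0249 in limma, and both had an adjusted p of 0.878. Across the array 821 genes had an unadjusted p under 0.05 there. The interactions of filanesib with pomalidomide ran from 0.02 to 0.19 and those with dexamethasone from -0.14 to 0.13. In both, 0 members had an unadjusted p under 0.05 in limma, beside 996 and 646 of all genes. Pairs of drugs were also set against control. Pomalidomide plus dexamethasone left MCM10 0.64 ± 0.15 below control (limma adjusted p = 0.0789), with 24 genes called (0.161%), and the other 6 genes 0.19 to 0.37 below. MCM10 passed that comparison without filanesib replicate 2 or without pomalidomide replicate 3. Filanesib plus pomalidomide left the 7 genes 0.19 to 0.40 below control, and filanesib plus dexamethasone left them from 0.09 below to 0.28 above. No member passed limma's adjusted threshold in either, where 21 (0.141%) and 0 (0%) of all genes passed. At an unadjusted p under 0.05 in limma there were 3 and 0 members, beside 1131 and 897 of all genes.

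The members of the ring varied together from array to array. Pearson's r over the 24 arrays, given as a description, was 0.77 to 0.93 in the 15 pairs of MCM2 to MCM7 and 0.75 to 0.86 in the 6 pairs with MCM10. After the group means were removed it was 0.28 to 0.87 and 0.53 to 0.78. All arrays share the treatments and a joint normalisation. When each gene was centred on its mean over 24 arrays, pomalidomide replicate 3 was the lowest array, at -0.80 for the mean of MCM2 to MCM7 and -0.72 for MCM10. In the 3 arrays of pomalidomide plus dexamethasone MCM10 lay at -0.44, -0.32 and -0.61, while the MCM2 to MCM7 mean lay at -0.06, -0.22 and -0.06. In those of pomalidomide alone both were low, MCM10 at -0.33, -0.25 and -0.72 and the ring mean at -0.45, -0.25 and -0.80.

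**Figure D4:**
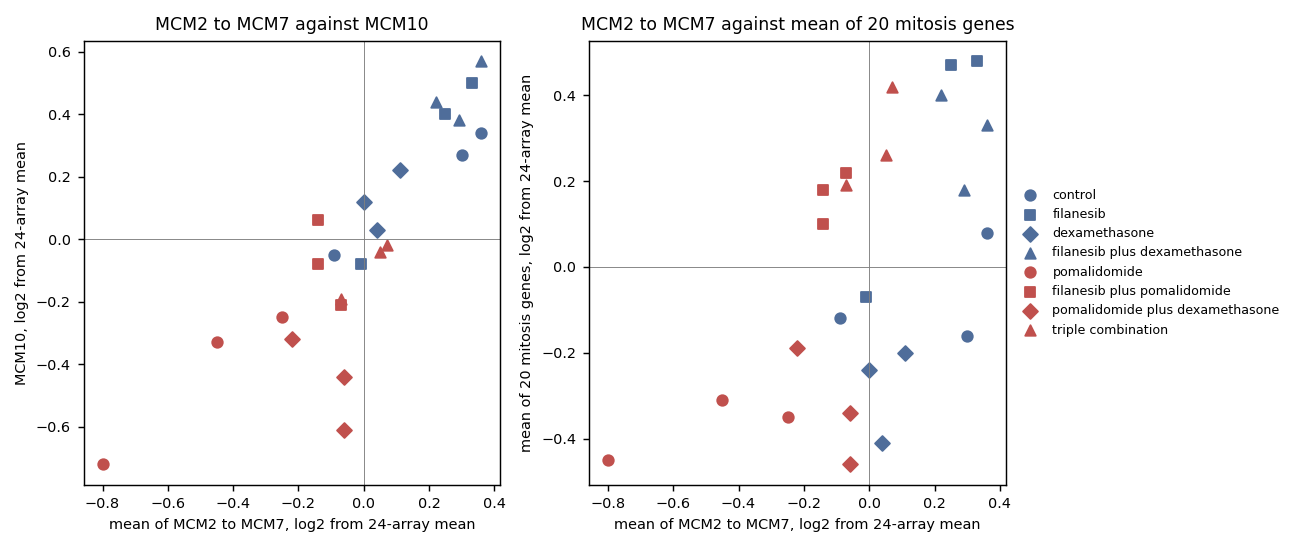
Mean of MCM2 to MCM7 (horizontal axis) against MCM10 (left) and against the mean of 20 mitosis genes (right), in log2 units from each gene's mean over 24 arrays; each point is 1 array, red with and blue without pomalidomide. Left, the 3 pomalidomide plus dexamethasone diamonds lie at -0.61 to -0.32 for MCM10 with a ring mean of -0.22 to -0.06. Right, the triangles and most squares, which are arrays with filanesib, lie above 0 for mitosis.

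Other MCM-named genes did not all follow the 7. MCM8, which acts with MCM9 in homologous recombination, fell with pomalidomide by 0.55 ± 0.10 and rose with filanesib by 0.53 ± 0.10 (limma adjusted p = 0.00218 and 0.00758). Its group means were 8.72 ± 0.41 (SD, n = 3) in control, 7.79 ± 0.50 with pomalidomide and 8.74 ± 0.16 with the triple combination. Over the 3 backgrounds with another drug the pomalidomide call of MCM8 was lost. MCM9 stood at 0.00 ± 0.07 with pomalidomide and 0.07 ± 0.07 with filanesib, and its sign with pomalidomide turned in 12 of the 24 omissions. MCMBP, which binds MCM subunits and takes part in their assembly and unloading, stood at -0.18 ± 0.05 and 0.17 ± 0.05 (limma adjusted p = 0.0617 and 0.15). MCM3AP, named for its protein's binding to MCM3, stood at -0.02 ± 0.08 and 0.12 ± 0.08. Of the 5 MCM relatives and binding proteins measured, 1 fell with pomalidomide and 1 rose with filanesib, both times MCM8.

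Both licensing factors that had a probe set with 1 gene symbol fell with pomalidomide: CDC6 by 0.51 ± 0.09 and CDT1 by 0.36 ± 0.07 (limma adjusted p = 0.00105 and 0.004). CDC6 rose with filanesib by 0.43 ± 0.09 (limma adjusted p = 0.0113), a call lost without pomalidomide replicates 1 and 3 (adjusted p = 0.0614), and CDT1 stood at 0.10 ± 0.07. The group means of CDC6 ran from 5.63 ± 0.29 (SD, n = 3) with pomalidomide to 6.78 ± 0.13 with filanesib. Over the 3 backgrounds with another drug the call of CDC6 held and that of CDT1 was lost. The list had 9 genes, and the other 7, ORC1 to ORC6 and GMNN, had no probe set with 1 gene symbol and are not analysed here. Of 12 helicase partners and firing factors, 6 fell with pomalidomide and none rose, with a median of -0.27. CDC45, which completes the active helicase, fell by 0.50 ± 0.07 (limma adjusted p = 0.000124). Of the GINS subunits, GINS2 fell by 0.53 ± 0.09, GINS3 by 0.39 ± 0.08 and GINS1 by 0.33 ± 0.07, and GINS4 stood at -0.19 ± 0.08. The kinase CDC7 and its activator DBF4, which phosphorylate the MCM ring to fire origins, stood at -0.22 ± 0.08 and -0.20 ± 0.08 and did not pass. With filanesib 2 of the 12 rose, GINS1 by 0.50 ± 0.07 (limma adjusted p = 0.000452) and DBF4 by 0.32 ± 0.08 (limma adjusted p = 0.0327), the latter lost in 12 of 24 omissions.

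Genes that work at the fork or precede S phase also fell with pomalidomide. Of the 24 listed fork genes 6 had a probe set with 1 gene symbol, and the polymerase, primase, RPA and RFC genes were not among them. Of these 6 fork genes 5 fell, among them the sliding clamp PCNA by 0.42 ± 0.08, and the fork protection and checkpoint genes TIPIN by 0.45 ± 0.09 and CLSPN by 0.45 ± 0.12. Of 4 nucleotide supply genes 3 fell: thymidylate synthase TYMS by 0.49 ± 0.08, and the ribonucleotide reductase subunits RRM2 by 0.42 ± 0.07 and RRM1 by 0.25 ± 0.07. The calls of CLSPN and RRM1 were near the threshold (limma adjusted p = 0.0372 and 0.0395) and were lost in 14 and 18 of the 24 omissions. Of 16 G1/S regulators 8 fell, with the transcription factor MYBL2 at -0.64 ± 0.08 (limma adjusted p = 5.01e-05), the phosphatase CDC25A at -0.45 ± 0.08 and the repressor E2F8 at -0.40 ± 0.08. The medians of these lists were -0.34, -0.34 and -0.30. Of 20 mitosis genes 3 fell with pomalidomide, with a list median of -0.09, where 394 genes of the array (2.65%) fell. Against control, pomalidomide alone had a mitosis median of -0.33, with 19 of the 20 below 0. There 1 of the 20 fell past the threshold, as did 1.47% of all genes. Mitosis medians against control were -0.22 for pomalidomide plus dexamethasone, 0.30 for filanesib plus pomalidomide and 0.34 for the triple combination. Over the 3 backgrounds with another drug the counts that fell were 4 of the 12 helicase partners, 2 of the 6 fork genes, 2 of the 4 nucleotide genes, 2 of the 16 G1/S regulators and 1 of the 20 mitosis genes, among 129 genes of the array.

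For filanesib the lists were split differently. All 20 mitosis genes rose in its average effect, with a median of 0.51, where 186 genes of the array (1.25%) rose. In the same average 0 of 6 fork genes, 0 of 4 nucleotide genes and 2 of 16 G1/S regulators passed. The pair was RBL1, at 0.43 ± 0.09, and CDC25A, at 0.35 ± 0.08 (limma adjusted p = 0.00758 and 0.0203), and CDC25A was lost without filanesib replicate 3 (adjusted p = 0.0507). The median of the 7 MCM genes was 0.24 and that of the fork genes 0.26. For filanesib alone against control, 0 of the 20 mitosis genes and 0 genes of the array passed, with a mitosis median of 0.36. For the triple combination against pomalidomide plus dexamethasone 1 of the 20 passed, as did 1 gene of the array, with a mitosis median of 0.62. Over the 3 backgrounds with another drug 19 of the 20 rose, among 216 genes of the array. In dexamethasone's average effect no gene of these lists passed.

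**Figure D5:**
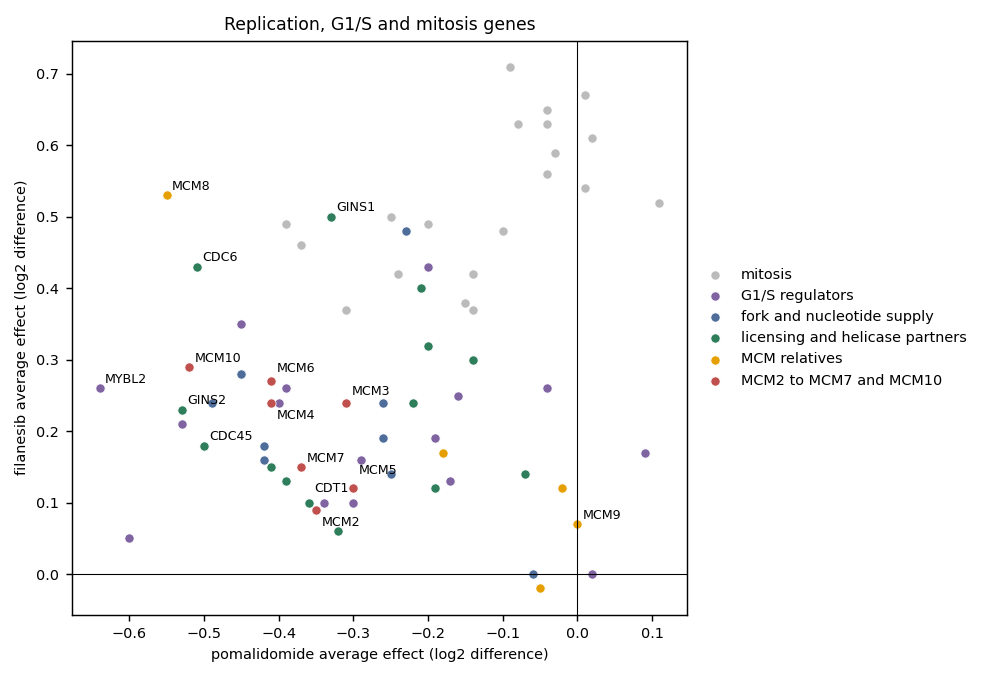
Average effect of pomalidomide (horizontal axis) against that of filanesib (vertical axis), as log2 differences, for the listed replication, G1/S and mitosis genes; each point is 1 gene, coloured by list. The 7 MCM genes lie at the left between -0.52 and -0.30, with filanesib values of 0.09 to 0.29, and the mitosis genes lie higher, at 0.37 to 0.71. Both comparisons use the same 24 arrays.

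MCM7 hosts the microRNA genes MIR25, MIR93 and MIR106B in an intron, so their probe sets lie within the same transcription unit. With pomalidomide MIR25 stood at -0.22 ± 0.09, MIR93 at -0.19 ± 0.08 and MIR106B at -0.05 ± 0.08, beside -0.37 ± 0.07 for MCM7. None of the 3 passed (limma adjusted p = 0.202, 0.216 and 0.831). With filanesib they stood at -0.12 ± 0.09, 0.04 ± 0.08 and -0.05 ± 0.08. The labels describe a total RNA assay, and whether these probe sets read the precursor or the host transcript was not tested.

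The genes most like the 7 MCM genes were found by Pearson's r over 24 arrays with the mean of the members, each centred on its own mean. NASP, a histone chaperone, DTL, a substrate receptor of the ubiquitin ligase that destroys CDT1 in S phase, and UHRF1, which reads hemimethylated DNA behind the fork, each had r = 0.92. NET1 followed at 0.91 and WDR76 at 0.90. These genes were picked on the arrays in which the MCM mean is low with pomalidomide, so the selection largely fixes the direction of their pomalidomide averages, which are given as a description. The averages were -0.33 ± 0.08 for NASP, -0.49 ± 0.08 for DTL, -0.35 ± 0.05 for UHRF1, -0.29 ± 0.06 for NET1 and -0.42 ± 0.06 for WDR76. Within groups their r was 0.84, 0.81, 0.62, 0.79 and 0.76, values that the selection on the same arrays also favours. At the other end were GAS2 at -0.86, MIR2276 at -0.80 and the interferon-induced RSAD2 at -0.78. Their pomalidomide averages, whose direction the selection fixes in the same way, were 0.32 ± 0.06, 0.27 ± 0.09 and 1.04 ± 0.14.

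Markers of other cells were set beside the pomalidomide result. The mean of the 8 plasma cell markers lay between 8.74 and 8.83 in pomalidomide alone arrays and between 8.85 and 8.92 in control. In the pomalidomide average 1 of the 8 fell and 1 rose: IRF4, a transcription factor of plasma cells, stood at -0.54 ± 0.11 and the surface enzyme CD38 at 0.18 ± 0.05 (limma adjusted p = 0.00557 and 0.0304). Both calls were lost over the 3 backgrounds with another drug. The mean of the 5 macrophage markers lay between 4.76 and 4.89 with pomalidomide alone and between 4.56 and 4.65 in control. Of those 5, CD68 passed, at 0.99 ± 0.09 in the pomalidomide average (limma adjusted p = 4.31e-07), and it was the single macrophage marker above the median level of all genes. The other 4 macrophage markers stood between -0.10 and 0.04 in that average and did not pass. T cell, endothelial and fibroblast lists had 0 genes past the threshold among 3, 4 and 2 measured. The part of host or other cells in the MCM differences was not tested.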

How the data were processed

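Per the submitters' processing notes, the authors made the deposited log2 values per probe set with RMA (background correction, quantile normalisation, probe summary) in Affymetrix Expression Console; versions are not given in the sources used here. Quantile normalisation hides a change shared by most genes. The probe table named 1 symbol for 16098 of 53617 probe sets. The other 37519 had several symbols or none and were left out. For the 779 genes with several probe sets, the one with the highest mean was taken. The labels name mouse as organism, but the probes name human genes, and whether mouse RNA cross-hybridised was not tested.

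Levels were tested with limma 3.58.1 in R 4.3.3: group means over all 24 arrays, 16 residual degrees of freedom, eBayes, two-sided p-values, Benjamini-Hochberg adjustment over 14884 genes within each comparison, threshold 0.05. Precision is limited by the number of arrays, with a median SE of 0.142 for a pair of groups and of 0.071 for an average effect. The procedure was tested on simulated data. The members, gene lists and tests were chosen with earlier results of these data known. Named were the 7 members, MCM relatives, licensing factors, helicase partners, intronic microRNA genes, up to 3 called genes with the smallest p per other list, and the 5 most and 3 least correlated genes. Alternatives were other normalisation, filters, weights, priors, probe set rules, a replicate block, restricted fits and omission of each array. Leaving out a background was added after seeing the data. No 2 arrays were identical. Replicate numbers did not pair arrays: deviations of same-numbered arrays had a median correlation of -0.02.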

Additional observations from a re-analysis of the deposited data

How the results depend on the processing

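The pomalidomide average called 7 MCM genes in all 24 omissions of 1 array, 6 without pomalidomide replicates 1 and 3, and 1 over the 3 backgrounds with another drug. Over 3 backgrounds that left out filanesib, dexamethasone or filanesib plus dexamethasone instead, it called 7 each time. Pomalidomide against control called 7, but 5 with further quantile normalization, 1 with array weights, 0 with only the compared groups, 0 without pomalidomide replicates 1 and 3, and 0 to 7 over omissions of 1 array. Filanesib's average called 1, but 0 with further quantile normalization, median centring, a trended and robust prior, every probe set tested, without pomalidomide replicates 1 and 3, and over 3 backgrounds not that of dexamethasone, of pomalidomide or of pomalidomide plus dexamethasone; over omissions it called 0 to 3. With the replicate number as a block it also called 0 (adjusted p of MCM10 = 0.0742), and the block changed no other count of MCM calls; 5 of 24 arrays correlated best with an array of their own number. Pomalidomide plus dexamethasone against control called 0, but 1 without pomalidomide replicates 1 and 3 or with array weights, and 0 to 1 over omissions. The genes called by pomalidomide alone against control over the whole array numbered 294, 166 with further quantile normalization, 62 with array weights, 3 with only the compared groups and 2 without pomalidomide replicates 1 and 3. For the pomalidomide average they numbered 723, 1210 with array weights and 353 over the 3 backgrounds with another drug. For pomalidomide plus dexamethasone against control they numbered 24, 138 with array weights and 56 without those replicates. Signs turned for values near 0 that passed no test. For dexamethasone, MCM10 was -0.01 with array weights, -0.02 without pomalidomide replicates 1 and 3, -0.03 over 3 backgrounds not that of filanesib and -0.02 to 0.05 over omissions. MCM2 was 0.00 without those replicates and -0.06 over 3 backgrounds not that of pomalidomide, where MCM3 was -0.02. For pomalidomide, MCM9 was 0.00 with further quantile normalization, 0.02 with array weights, 0.02 without those replicates and -0.04 to 0.04 over omissions, and MCM3AP was 0.03, 0.08 and -0.06 to 0.05 with array weights, without those replicates and over omissions. For filanesib, MIR93 was -0.04 and 0.00 with array weights and without those replicates. The causes were not tested. All 7 MCM genes were among the 10412 genes kept without dim genes.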
